A study of Mus musculus with 59 samples.

Results

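The genes that encode the constitutive proteasome, its assembly chaperones, its activators and its inhibitor were followed in cultured microglia of the mouse, which are the brain's own macrophages, across 3 Tbk1 genotypes and 4 treatments. Every gene whose symbol starts with Psma, Psmb, Psmc, Psmd, Psme, Psmf or Psmg and a digit was taken, pseudogenes aside, which gave 47 of the 32070 genes in the files. Psmb8, Psmb9 and Psmb10, the interferon-inducible catalytic subunits, were left out of the set and serve as the counterparts of Psmb5, Psmb6 and Psmb7. By role the set held 7 subunits of the alpha ring, 7 of the beta ring, 9 of the base, 8 of the lid, 3 chaperones of base assembly, 4 chaperones of core assembly, 5 activators and 1 inhibitor, 44 genes in all. The remaining 3 are listed apart. Psma8, a form of the alpha ring known from testis, and Psmb11, a form of the beta ring known from thymus, did not exceed 2.83 TPM in any library, and Psmc3ip, which shares only the first letters of its symbol, encodes a recombination factor.

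The proteasome degrades proteins that carry ubiquitin chains. Its core is a barrel of stacked alpha and beta rings, and the beta ring holds the cleaving sites. A regulatory particle made of a base, which unfolds substrates with a ring of ATPases, and a lid, which removes ubiquitin, caps the core. Activators can take the place of the regulatory particle: Psme1 and Psme2 together form an interferon-inducible ring, while Psme3 and Psme4 encode separate, mainly nuclear activators. In cells exposed to interferon, Psmb8, Psmb9 and Psmb10 replace Psmb5, Psmb6 and Psmb7 in newly built cores, which changes the peptides made for presentation on MHC class I. Tbk1 is a kinase that acts downstream of pattern recognition receptors and is needed for much of the type I interferon output of macrophages.

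The cultures came from newborn pups (P0/P1) and were of 3 genotypes, spelled here as in the labels: WT was Tbk1fl/fl, Cx3CR1-Cre-, HET was Tbk1fl/+, Cx3CR1-Cre+, and KO was Tbk1fl/fl, Cx3CR1-Cre+. The Cre recombinase was thus driven by Cx3CR1 in HET and KO and missing in WT, so that KO against HET holds Cre constant and KO against WT does not. After 16 h of plating the medium was changed. It held nothing further (UT), LPS (lipopolysaccharide, from the outer membrane of bacteria, 100 ng/mL), IL4 (the cytokine interleukin-4, 20 ng/mL) or pIC (poly(I:C), which mimics viral double-stranded RNA), and cells were lysed 24 h later. For pIC the sources used here give no dose. Each of the 12 groups had 5 libraries, except WT UT with 4, whose replicate 5 was not analysed here, for 59 in all. The labels call the 5 cultures of a genotype independent, and p-values measure the spread between these cultures. The main tests left the replicate number out, and it entered as a block in an alternative. In each group that held a replicate 5, that library had the fewest genes at 1 TPM. WT UT, which lacks it, was thus compared with groups that hold it.

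Values are TPM, which divide out gene length and fix the total of each library, so levels of different genes can be set side by side while depth per library is unknown. Libraries summed to between 999806 and 999936 TPM, and 12428 to 14581 genes reached 1 TPM. Tbk1 itself was lower in KO, at 47.5 ± 4.17 TPM (SD, n = 4) in WT UT against 19.9 ± 4.74 (SD, n = 5) in KO UT, and at 90.9 ± 8.37 in WT LPS, 60.5 ± 4.08 in HET LPS and 18.0 ± 5.14 in KO LPS (SD, n = 5 each). Under LPS the 50 most abundant genes took 31.5% to 38.3% of the TPM in any library, against 24.1% to 33.3% in UT. A share of the total falls for most genes when a few abundant ones rise, and the median log2 difference of LPS against UT over all genes tested was -0.59 in WT. LPS results of the members are therefore also given after median-of-ratios scaling, which brings that median to -0.06. The KO LPS libraries spread widely in Psme1, Psmb9 and Psmb10: KO LPS 1 was highest and at or above the lowest WT LPS level, KO LPS 3 came next and the other 3 lay lower. Tbk1 in KO LPS 1 was low, at 12.1 TPM. In bulk RNA, fewer cells of a type and less RNA per cell cannot be told apart. The defining microglial genes summed to 13051 to 14765 TPM in WT UT and to 3715 to 4790 TPM in WT LPS.

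Promoter windows are shown for 4 genes on which the genotype differences turn: Psme1 and Psme2, whose products build 1 ring and of which Psme1 alone was called lower in KO under LPS, Psme4, another activator lower in KO, and Psmc6, the lowest base gene in KO under LPS. Each window runs from 250 bases before to 50 bases after the RefSeq start on GRCm38.p6, 5′ to 3′ on the gene's strand. Capitals mark a match to GAAA, any 2 bases and GAAA again, a pair of half-sites of the interferon-stimulated response element, or to TGACNNNGC, a core of the antioxidant response element read by NRF1 and NRF2. Both strands were searched, and the 2 motifs did not overlap in these windows. The Psme1 window is chr14:55578244-55578543, plus strand, that of Psme2 chr14:55591052-55591351, minus strand, that of Psme4 chr11:30771525-30771824, plus strand and that of Psmc6 chr14:45329574-45329873, plus strand.
Psme1: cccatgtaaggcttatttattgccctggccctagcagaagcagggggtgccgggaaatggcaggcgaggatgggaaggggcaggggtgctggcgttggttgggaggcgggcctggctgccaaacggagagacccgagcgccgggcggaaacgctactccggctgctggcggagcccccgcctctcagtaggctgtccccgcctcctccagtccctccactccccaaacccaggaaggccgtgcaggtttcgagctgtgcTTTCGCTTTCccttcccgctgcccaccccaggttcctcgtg
Psme2: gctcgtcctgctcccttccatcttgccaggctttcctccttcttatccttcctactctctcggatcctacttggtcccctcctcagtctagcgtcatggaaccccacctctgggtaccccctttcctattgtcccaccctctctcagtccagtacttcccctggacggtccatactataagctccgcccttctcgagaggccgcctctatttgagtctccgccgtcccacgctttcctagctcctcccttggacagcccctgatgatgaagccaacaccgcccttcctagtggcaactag
Psme4: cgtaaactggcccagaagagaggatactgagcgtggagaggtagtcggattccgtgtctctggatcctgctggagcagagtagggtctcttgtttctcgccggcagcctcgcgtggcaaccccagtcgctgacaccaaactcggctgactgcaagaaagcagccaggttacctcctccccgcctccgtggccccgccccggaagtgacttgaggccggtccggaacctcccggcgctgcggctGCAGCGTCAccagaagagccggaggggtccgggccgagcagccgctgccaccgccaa
Psmc6: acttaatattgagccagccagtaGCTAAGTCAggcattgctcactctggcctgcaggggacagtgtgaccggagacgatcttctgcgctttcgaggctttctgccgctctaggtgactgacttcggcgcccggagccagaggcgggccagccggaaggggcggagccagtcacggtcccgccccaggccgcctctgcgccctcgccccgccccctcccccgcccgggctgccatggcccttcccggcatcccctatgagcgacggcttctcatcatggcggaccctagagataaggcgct

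In the Psme1 window the match TTTCGCTTTC is the GAAA pair on the opposite strand, 10 bases after the start, and the Psme2 window held neither motif. Psme4 held GCAGCGTCA, the reverse complement of TGACNNNGC, 7 bases before the start, and Psmc6 held GCTAAGTCA 227 bases before it. The GAAA pair was found in 1131 of all 32851 windows (3.44%), in 3.99% of the 27025 genes when counted per gene, and in 5 of the 39 members with a window (12.8%): Psmb3, Psmd4, Psmd9, Psme1 and Psmg4. TGACNNNGC was found in 4071 windows (12.4%), in 13.99% of genes, and in 6 of the 39 (15.4%): Psmb5, Psmb6, Psmc6, Psmd12, Psmd9 and Psme4. A match describes these letters only. By the GENCODE annotation of GRCm38, Psme1 spans chr14:55578123-55581529 on the plus strand and Psme2 chr14:55587441-55591113 on the minus strand, so that both lie within the same stretch of chromosome 14. The GENCODE start of Psme1 lies before the first base of its window. The distances given here thus hold for the RefSeq starts only.

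In untreated WT cells the ring, base and lid genes were all expressed. Group means ran from 66.4 to 182 TPM in the alpha ring, 116 to 274 TPM in the beta ring, 78.7 to 166 TPM in the base and 60.5 to 198 TPM in the lid. The assembly chaperones were lower, at 18.4 to 30.9 TPM for those of the core and 25.7 to 32.1 TPM for those of the base. Libraries of a group lay close together: the median coefficient of variation over the 44 genes was 6.83% in WT LPS, the lowest of the 12 groups, and 11.1% in KO pIC, the highest. Rings, base and lid together made up 0.384% of all TPM in WT UT.

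LPS against UT asks how the machinery responds to a bacterial stimulus. In WT, 33 of the 46 members tested were called higher and 5 lower, against 13.9% of all genes higher and 61.9% lower (limma on log2(TPM + 1), Benjamini-Hochberg adjusted p under 0.05). The members' median log2 difference was 0.42 and that of all genes -0.59. After median-of-ratios scaling 41 members were called higher and 1 lower, with a median of 1.09, where 31.6% of all genes were higher and 32.3% lower. Scaled in the same way, KO gave 43 higher and none lower (29.4% and 29.1% of all genes). HET gave 41 higher and none lower after scaling (32.3% and 32.6% of all genes). On TPM as deposited HET gave 32 higher and 5 lower (background 14.3% and 59.7%). On the same values KO gave 30 higher and 2 lower (13.1% and 56.5%), or 32 and 4 with the replicate number as a block. That block was shared by all genotypes and treatments fitted together. Same-numbered UT and LPS cultures correlated at 0.117 to 0.273 in WT, -0.022 to 0.319 in HET and 0.13 to 0.345 in KO. The part of this in the counts was not tested.

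**Figure D1:**
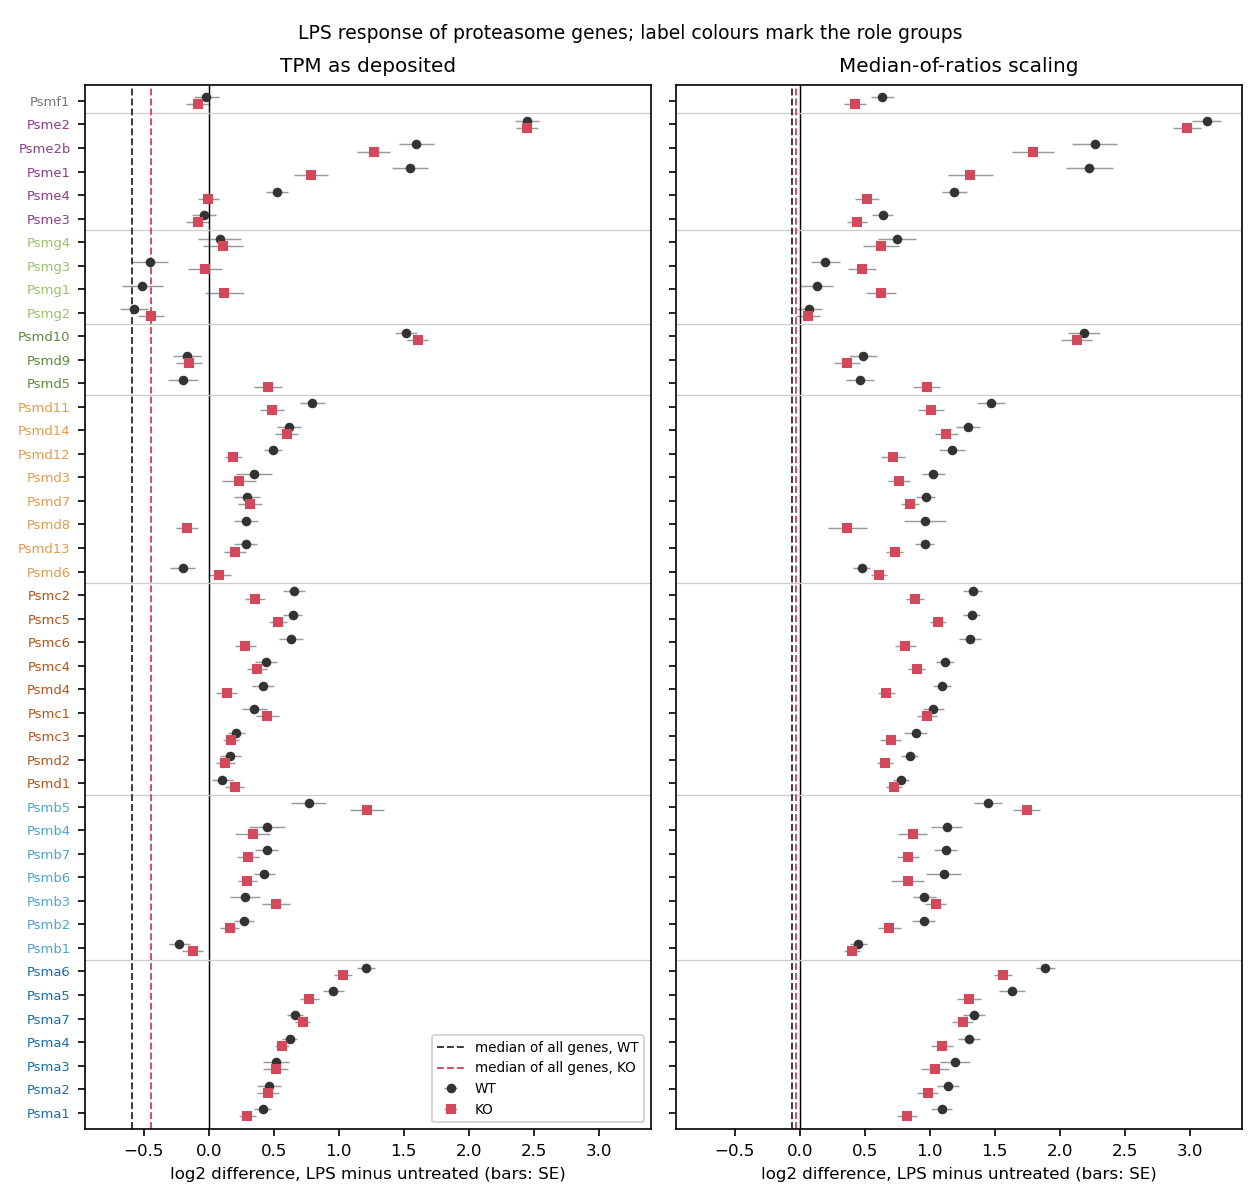
Log2 difference of LPS minus UT for each of the 44 members with a role, in WT (black circles) and KO (red squares), with bars of 1 SE; the left panel uses TPM as deposited, the right median-of-ratios scaling, and the dashed lines mark the median of all genes tested. Ring, base and lid genes lie to the right of the dashed lines in both panels, and Psme2, Psme2b, Psme1 and Psmd10 lie farthest out in WT.

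Psme2, an activator subunit, showed the largest rise of all members. It stood at 92.2, 94.8, 97.9 and 100.3 TPM in WT UT and at 523, 528, 503, 539 and 562 TPM in WT LPS, a log2 difference of 2.45 (SE 0.09, adjusted p = 1.6e-24). Psme1, its partner, went from 118, 125, 118 and 115 TPM to 353, 409, 315, 339 and 342 TPM, a difference of 1.55 (SE 0.14, adjusted p = 1.5e-12). For both genes every LPS library lay far above every untreated one. Psme1 shares 14 exonic bases with Emc9 on the genome. Psme2b, a near-identical copy of Psme2, rose by 1.60 (SE 0.13, adjusted p = 2.2e-13), but 68.7% of its 50-base words also occur in Psme2, so its reads cannot be assigned with certainty. Psme4, the nuclear activator that binds the core as a single chain, was at 30.9, 32.1, 32.8 and 35.4 TPM in WT UT and 47.8, 51.8, 46.4, 44.1 and 47.8 TPM in WT LPS, with no overlap and a difference of 0.52 (SE 0.09, adjusted p = 1.1e-06). Psme3 was at 92.8, 72.6, 79.1 and 75.8 TPM untreated and 82.4, 78.9, 81.7, 75.5 and 70.5 TPM with LPS, groups that overlapped, and its difference was -0.04 (SE 0.09, adjusted p = 0.72), or 0.64 after median-of-ratios scaling. Psmf1, an inhibitor of the core, had a difference of -0.02 (adjusted p = 0.88) on TPM as deposited.

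**Figure D2:**
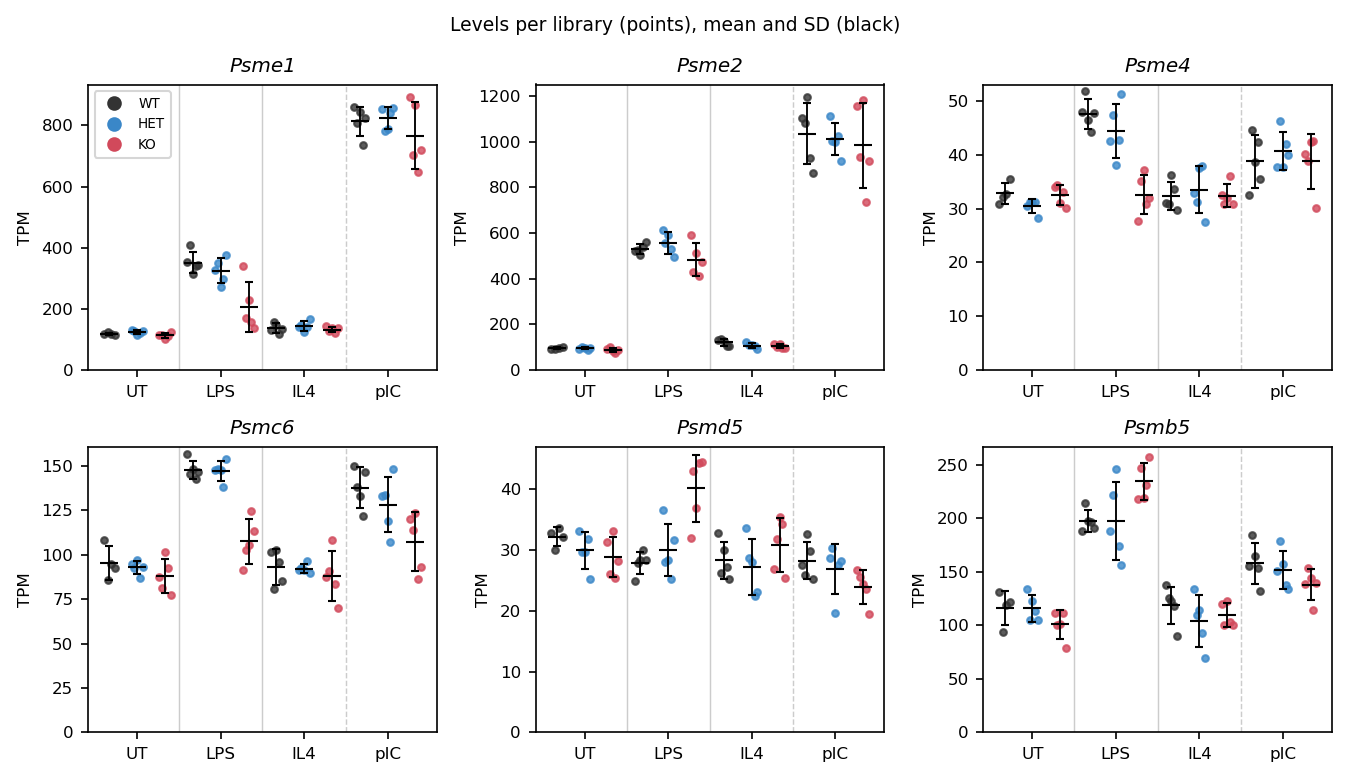
TPM of Psme1, Psme2, Psme4, Psmc6, Psmd5 and Psmb5 in each library of the 12 groups, with group means and SD; the pIC libraries come from a table deposited separately. Psme1 in KO LPS ranges from 139 to 340.0 TPM, with KO LPS 1 at the WT level and the other 4 libraries below every WT LPS library.

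All 7 alpha ring genes rose in WT, by 0.41 to 1.21 on the log2 scale with a median of 0.62. Psma6 showed the largest rise of the ring, from 173, 146, 157 and 169 TPM to 424, 357, 363, 379.8 and 345 TPM, a difference of 1.21 (SE 0.07, adjusted p = 3.8e-18). The smallest belonged to Psma1, from 158, 133, 141 and 145 TPM to 209, 185, 187, 187 and 195 TPM, a difference of 0.41 (SE 0.07, adjusted p = 8.2e-07). Even for Psma1 the 2 groups did not overlap.

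In the beta ring 6 of 7 genes rose. Psmb5, which carries the chymotrypsin-like site, went from 131, 93.7, 119 and 121 TPM to 188, 214, 197, 196 and 191 TPM, a difference of 0.77 (SE 0.14, adjusted p = 4.5e-06). Psmb6, which carries the caspase-like site, went from 287, 263, 273 and 272 TPM to 318, 397, 335, 374 and 429.9 TPM, a difference of 0.43 (SE 0.08, adjusted p = 9.5e-06). Psmb7, with the trypsin-like site, went from 144, 115, 130.5 and 135 TPM to 172, 175, 182, 179 and 182 TPM, a difference of 0.45 (SE 0.09, adjusted p = 2.7e-05). None of these 3 pairs of groups overlapped. Psmb1, a structural subunit, was the exception at 129.9, 113, 114 and 119 TPM untreated and 108, 103, 99.0, 103 and 94.8 TPM with LPS, a difference of -0.23 (SE 0.08, adjusted p = 0.014) that turned to 0.45 after median-of-ratios scaling and lost its call without WT UT 1 (adjusted p = 0.066).

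In the base 8 of 9 genes rose, with a median of 0.42. The ATPase Psmc2 led, from 87.03, 72.3, 77.3 and 78.4 TPM to 140.0, 124, 121, 124 and 114 TPM, a difference of 0.66 (SE 0.08, adjusted p = 7.5e-09), with the groups apart. Psmd2, a scaffold that docks ubiquitin-carrying factors, changed least of the called genes, by 0.17 (SE 0.08, adjusted p = 0.049), and its groups (147 to 183 TPM and 178 to 196 TPM) overlapped. That call was lost in 5 of 9 fits that left out 1 library (adjusted p up to 0.22). In the lid 7 of 8 rose, with a median of 0.32. Psmd11, which helps to join the lid to the core, went from 65.7, 54.8, 60.3 and 61.3 TPM to 97.4, 107, 107, 96.4 and 124 TPM, a difference of 0.80 (SE 0.10, adjusted p = 3.3e-09). Psmd13 showed the smallest called rise, 0.28 (SE 0.09, adjusted p = 0.0035), at 106, 87.1, 91.7 and 99.9 TPM untreated and 122, 113, 117, 124 and 109 TPM with LPS, without overlap. Psmd6 had a difference of -0.20 (adjusted p = 0.059) on TPM as deposited. Psmd13 shares 329 exonic bases with Sirt3, and the strand setting is unknown.

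Among the assembly chaperones 1 of 7 was called higher on TPM as deposited. Psmd10 (gankyrin), which escorts an ATPase of the base, went from 27.5, 24.5, 25.8 and 24.9 TPM to 74.8, 74.2, 75.4, 81.3 and 71.7 TPM, a difference of 1.52 (SE 0.08, adjusted p = 8.2e-19). Of the other base chaperones, Psmd5 had a difference of -0.20 (adjusted p = 0.12) and Psmd9 of -0.17 (adjusted p = 0.15). Both values are on TPM as deposited, where the median of all genes was -0.59. Of the 4 chaperones of the core, 3 were called lower on TPM as deposited: Psmg1 at -0.51, Psmg2 at -0.57 and Psmg3 at -0.45, which became 0.13, 0.07 and 0.20 after median-of-ratios scaling. Psmg2 was at 22.9, 20.0, 22.0 and 20.8 TPM in WT UT and 18.6, 15.0, 12.8, 13.4 and 11.5 TPM in WT LPS, with no overlap. Their direction thus depends on the scaling, whereas that of Psmd10 does not (2.18 after scaling). The count of chaperones called higher depends on it too, since 41 of 46 members were called higher after scaling.

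HET followed a like course, with Psme2 at 2.53 (SE 0.09, adjusted p = 5.9e-26), Psmd10 at 1.70 (SE 0.08, adjusted p = 3.1e-21) and Psme2b at 1.40 as its highest and Psmc3ip at -0.72, Psmg2 at -0.55 and Psmg3 at -0.45 as its lowest. In KO, Psme2 rose by 2.45 (SE 0.09, adjusted p = 3.7e-25) and Psmd10 by 1.61 (SE 0.08, adjusted p = 2.9e-20), and for each gene the KO LPS libraries lay above all KO UT libraries. Psmg2 (-0.44) and Psmc3ip (-0.52) were the 2 called lower in KO. By role, KO had 7 of 7 alpha ring, 6 of 7 beta ring, 7 of 9 base, 5 of 8 lid and 3 of 5 activator genes called higher. The median over the 14 ring genes was 0.46 in WT and 0.49 in KO, and that over the 17 base and lid genes was 0.35 in WT and 0.24 in KO.

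KO against WT under LPS asks whether loss of Tbk1 changes these levels in stimulated cells. Of the same 46 members, 17 (37.0%) were lower in KO and 2 (4.35%) higher, where 13.2% of all genes were lower and 14.4% higher. The members' median log2 difference, KO minus WT, was -0.13 against 0.01 for all genes. Median-of-ratios scaling gave 19 lower and 2 higher against 16.8% and 14.2% of all genes, and quantile normalization 12 lower and 5 higher against 13.4% and 16.6%. Leaving out KO LPS 1 gave 18 lower and 2 higher. Mitochondrial transcripts took 2.26% to 2.88% of the TPM in WT LPS, 2.31% in KO LPS 1 and 3.51% to 5.89% in the other KO LPS libraries. The 50 most abundant genes took 31.5% to 35.4% in WT LPS and 35.1% to 38.3% in KO LPS. The part of these shares in the member differences was not tested. Against HET, which carries the same Cre, 19 of 46 were lower in KO and 1 higher (11.5% and 12.5% of all genes). Both comparisons use the same KO libraries. HET and WT under LPS gave no called member by limma and 3 at an unadjusted p under 0.05, with 0.0126% of all genes higher.

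Among the activators 3 of 5 were lower in KO. Psme1 was at 353, 409, 315, 339 and 342 TPM in WT LPS, 326, 352, 272, 299 and 376 TPM in HET LPS and 340.0, 169, 230.4, 156 and 139 TPM in KO LPS. KO LPS 1 lay within the WT range and the other 4 KO libraries below every WT and HET library. The difference from WT was -0.84 (SE 0.13, adjusted p = 2.7e-06), or -1.04 without KO LPS 1, and that from HET was -0.72 (SE 0.13, adjusted p = 4.3e-05). The call against HET was lost when only the groups compared were fitted. Psme2, the partner subunit, was at 523, 528, 503, 539 and 562 TPM in WT LPS, 616, 558, 590.3, 532 and 495 TPM in HET LPS and 594, 429, 513, 411 and 475 TPM in KO LPS. These groups overlapped, and the KO minus WT difference of -0.14 (SE 0.09, adjusted p = 0.24) did not pass. The ratio of Psme1 to Psme2 within a library was 1.24 ± 0.0729 (SD, n = 4) in WT UT, 0.663 ± 0.0667 (SD, n = 5) in WT LPS, 0.588 ± 0.114 (SD, n = 5) in HET LPS and 0.418 ± 0.103 (SD, n = 5) in KO LPS. It was 1.30 ± 0.147 (SD, n = 5) in KO UT, 0.795 ± 0.0941 (SD, n = 5) in WT pIC and 0.786 ± 0.0569 (SD, n = 5) in KO pIC, so that of these 3 treatments WT and KO overlapped in UT and pIC, while under LPS every KO library lay below every WT one. The ratio was not tested.

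Psme4 was at 47.8, 51.8, 46.4, 44.1 and 47.8 TPM in WT LPS, 42.6, 47.3, 38.0, 42.7 and 51.2 TPM in HET LPS and 27.8, 35.2, 37.1, 30.9 and 32.0 TPM in KO LPS. Every KO library lay below every WT and HET library. The KO minus WT difference was -0.54 (SE 0.08, adjusted p = 1.1e-06) and the KO minus HET difference -0.43 (SE 0.08, adjusted p = 5.3e-05). In KO the untreated libraries stood at 30.1 to 34.4 TPM, and the LPS minus UT difference was -0.00 (SE 0.08, adjusted p = 0.99). That value is on TPM as deposited, where the median of all genes for LPS against UT in KO was -0.44. After median-of-ratios scaling 43 of 46 members were called higher with LPS in KO and none lower. Psme2b differed by -0.44 (SE 0.13, adjusted p = 0.0073), with the limit on its reads given above, and lost its call after quantile normalization. Psme3 was at 66.5, 66.1, 70.1, 79.3 and 72.2 TPM in KO LPS, a KO minus WT difference of -0.13 (adjusted p = 0.28).

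**Figure D3:**
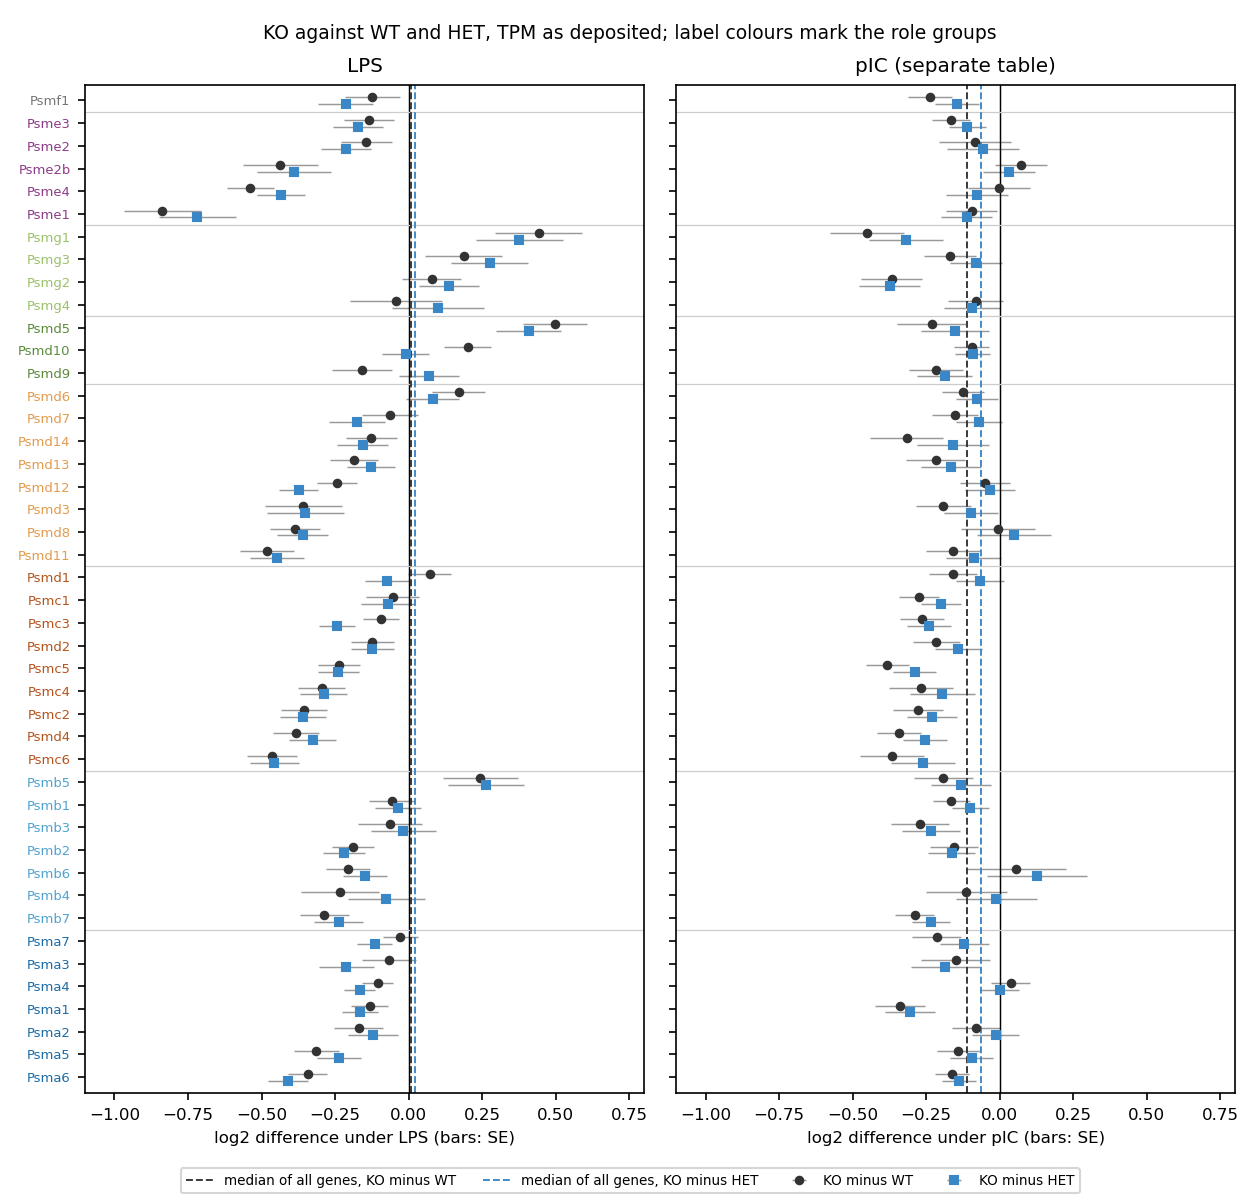
Log2 difference of KO minus WT (circles) and KO minus HET (squares) for the members, under LPS in one panel and under pIC in the other, by role, with bars of 1 SE and dashed lines at the medians of all genes tested. Under LPS Psme1 lies lowest at -0.84 and Psmd5 highest at 0.50 against WT, while under pIC the activators lie between -0.17 and 0.07 against WT.

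In the core, 5 of 14 ring genes were lower in KO LPS, with a median of -0.15. Psma6 differed by -0.34 (SE 0.07, adjusted p = 8.5e-05), at 424, 357, 363, 379.8 and 345 TPM in WT LPS and 322, 287, 274, 284 and 305 TPM in KO LPS, with no overlap. Psma5 differed by -0.31 (SE 0.08, adjusted p = 0.0013), at 139, 160.2, 140.3, 156 and 164 TPM and 125, 118, 112, 119.6 and 135 TPM, again with no overlap. Among the catalytic subunits Psmb7 was lower, at 151, 143, 140.0, 139 and 157 TPM in KO LPS against 172 to 182 TPM in WT LPS, a difference of -0.29 (SE 0.08, adjusted p = 0.0075) without overlap. Psmb7 shares 253 exonic bases with Nek6. Psmb6 was at 337, 299, 276, 324 and 366 TPM in KO LPS against 318 to 429.9 TPM in WT LPS, overlapping groups with a difference of -0.21 (SE 0.07, adjusted p = 0.034). Psmb2, a structural beta subunit, differed by -0.19 (SE 0.07, adjusted p = 0.046), at 181, 159, 151, 137 and 149 TPM in KO LPS within or below the 156 to 201 TPM of WT LPS. The call of Psmb6 was lost in 5 of 10 fits that left out 1 library (WT LPS 2, 4 or 5, KO LPS 2 or 3, adjusted p up to 0.15), and that of Psmb2 in 7 of 10 (adjusted p up to 0.16). Psmb5 went the other way without passing: 218, 247, 219, 231 and 258 TPM in KO LPS, all above the 188 to 214 TPM of WT LPS, with a difference of 0.24 (SE 0.13, adjusted p = 0.17), while HET LPS spanned 157 to 246 TPM.

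The regulatory particle had 9 of 17 genes lower in KO LPS, with a median of -0.24: 5 of 9 in the base and 4 of 8 in the lid. Psmc6, an ATPase of the base, was at 157, 146, 148, 143 and 147 TPM in WT LPS, 148, 148, 148, 138 and 154 TPM in HET LPS and 91.3, 103, 105, 125 and 113 TPM in KO LPS. No KO library reached the lowest WT or HET library. The difference was -0.46 (SE 0.08, adjusted p = 3e-05) from WT and -0.46 (SE 0.08, adjusted p = 4.7e-05) from HET. Psmc5, also an ATPase, showed the smallest called difference of the base, -0.24 (SE 0.07, adjusted p = 0.0091), at 124, 115, 119.8, 116 and 118 TPM in KO LPS against 132 to 151 TPM in WT LPS. Psmd4, a ubiquitin receptor, differed by -0.38, Psmc2 by -0.36 and Psmc4 by -0.30.

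In the lid, Psmd11 was at 97.4, 107, 107, 96.4 and 124 TPM in WT LPS and 65.7, 73.5, 69.9, 79.4 and 91.3 TPM in KO LPS, a difference of -0.48 (SE 0.09, adjusted p = 6.5e-05) with no overlap. Psmd12, a structural lid subunit, was at 114, 96.1, 101, 105 and 89.6 TPM in WT LPS and 80.1, 79.1, 86.7, 90.5 and 88.6 TPM in KO LPS, groups that overlapped slightly, with a difference of -0.24 (SE 0.07, adjusted p = 0.0045). Psmd8 (-0.39) and Psmd3 (-0.36) were the other lid genes called, and the call of Psmd3 was lost in 7 of 10 fits that left out 1 library (adjusted p up to 0.1). That of Psmd12 was lost after quantile normalization, while those of Psme1, Psme4, Psmc6, Psmd11, Psma5, Psma6, Psmb7 and Psmd5 against WT held under every alternative run. The summed rings over the summed base and lid came to 1.08 ± 0.0138 (SD, n = 4) in WT UT, 1.22 ± 0.0279 (SD, n = 5) in WT LPS, 1.20 ± 0.0346 (SD, n = 5) in HET LPS and 1.28 ± 0.0659 (SD, n = 5) in KO LPS. Rings, base and lid took 0.530% of all TPM in WT LPS, 0.535% in HET LPS and 0.469% in KO LPS.

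Of the assembly chaperones 2 were higher in KO LPS. Psmd5, a chaperone of the base, was at 24.9, 27.9, 28.4, 29.9 and 28.4 TPM in WT LPS, 36.6, 27.9, 28.4, 25.3 and 31.7 TPM in HET LPS and 31.9, 42.9, 36.8, 44.3 and 44.5 TPM in KO LPS. Every KO library lay above every WT library, and KO LPS 1 within the HET range. The difference was 0.50 (SE 0.11, adjusted p = 0.00042) from WT and 0.41 (SE 0.11, adjusted p = 0.0042) from HET. Psmg1, a chaperone of core assembly, was at 13.3, 13.9, 11.1, 14.2 and 10.7 TPM in WT LPS and 16.0, 18.5, 17.8, 19.2 and 15.8 TPM in KO LPS, apart from each other, with a difference of 0.44 (SE 0.15, adjusted p = 0.021). Its call was lost without WT LPS 3, WT LPS 5 or KO LPS 4 (adjusted p up to 0.065).

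The response to LPS itself, LPS minus UT in KO less the same in WT, was tested as an interaction. Of 46 members 5 (10.9%) were called lower and 2 (4.35%) higher, against 7.03% and 9.36% of all genes. Median-of-ratios scaling gave 9 lower (19.6%) against 10.4% of all genes. The difference in response, KO minus WT, was -0.77 (SE 0.19, adjusted p = 0.0036) for Psme1, -0.53 (SE 0.12, adjusted p = 0.0011) for Psme4 and -0.45 (SE 0.13, adjusted p = 0.009) for Psmd8, whose call was lost after median-of-ratios scaling. Psmc6 (-0.35) and Psmd12 (-0.31) completed the 5. Psmd5 at 0.66 (SE 0.16, adjusted p = 0.0027) and Psmg1 at 0.63 (SE 0.22, adjusted p = 0.038) had the higher response in KO. With single libraries left out, the calls of Psmc6 were lost in 13 of 19 fits, those of Psmg1 in 9 of 19 and those of Psmd12 in 4 of 19, while Psme1, Psme4, Psmd8 and Psmd5 kept theirs in all 19. Against HET, 6 members were lower and 1 higher (6.15% and 7.69% of all genes), among them Psme1 at -0.59, Psme4 at -0.52 and Psmd12 at -0.47, with Psmd5 at 0.46. Calls against HET were lost in 13 of 20 fits for Psmd5, 8 of 20 for Psmd11, 5 of 20 for Psmc6 and 5 of 20 for Psme1. HET against WT gave no called member in this interaction by limma, and none at an unadjusted p under 0.05.

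Transcripts of the interferon-inducible subunits made up more of the catalytic sum with LPS, and less in KO LPS than in WT LPS for Psmb8. Psmb8 in WT LPS was at 479, 490.3, 479, 474 and 475 TPM and in KO LPS at 400.3, 201, 283, 192 and 221 TPM. All 5 KO libraries lay below every WT library, with KO LPS 1 highest, KO LPS 3 next and the other 3 lower. Psmb8 as a share of Psmb8 and Psmb5 was 39.6 ± 6.54% (SD, n = 4) in WT UT, 70.8 ± 0.83% (SD, n = 5) in WT LPS and 69.7 ± 3.31% (SD, n = 5) in HET LPS. In KO LPS it was 51.5 ± 8.79% (SD, n = 5), with single libraries at 64.7, 44.9, 56.4, 45.4 and 46.2%. Psmb9 as a share of Psmb9 and Psmb6 was 5.69 ± 1.09% (SD, n = 4) in WT UT, 17.5 ± 1.26% (SD, n = 5) in WT LPS and 14.6 ± 1.69% (SD, n = 5) in HET LPS. In KO LPS it was 11.1 ± 5.03% (SD, n = 5), with single libraries at 18.2, 9.73, 14.1, 6.68 and 6.66%, overlapping WT. Psmb10 as a share of Psmb10 and Psmb7 was 31.8 ± 3.03% (SD, n = 4) in WT UT, 58.4 ± 1.92% (SD, n = 5) in WT LPS and 57.2 ± 1.71% (SD, n = 5) in HET LPS. In KO LPS it was 53.9 ± 8.46% (SD, n = 5), with single libraries at 66.0, 52.8, 58.2, 47.5 and 45.1%, on both sides of the WT range. Psmb9 shares 212 exonic bases with Tap1 and Psmb8 259 with Gm20496, both on the opposite strand. These shares are descriptions of transcripts per length, without a test.

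**Figure D4:**
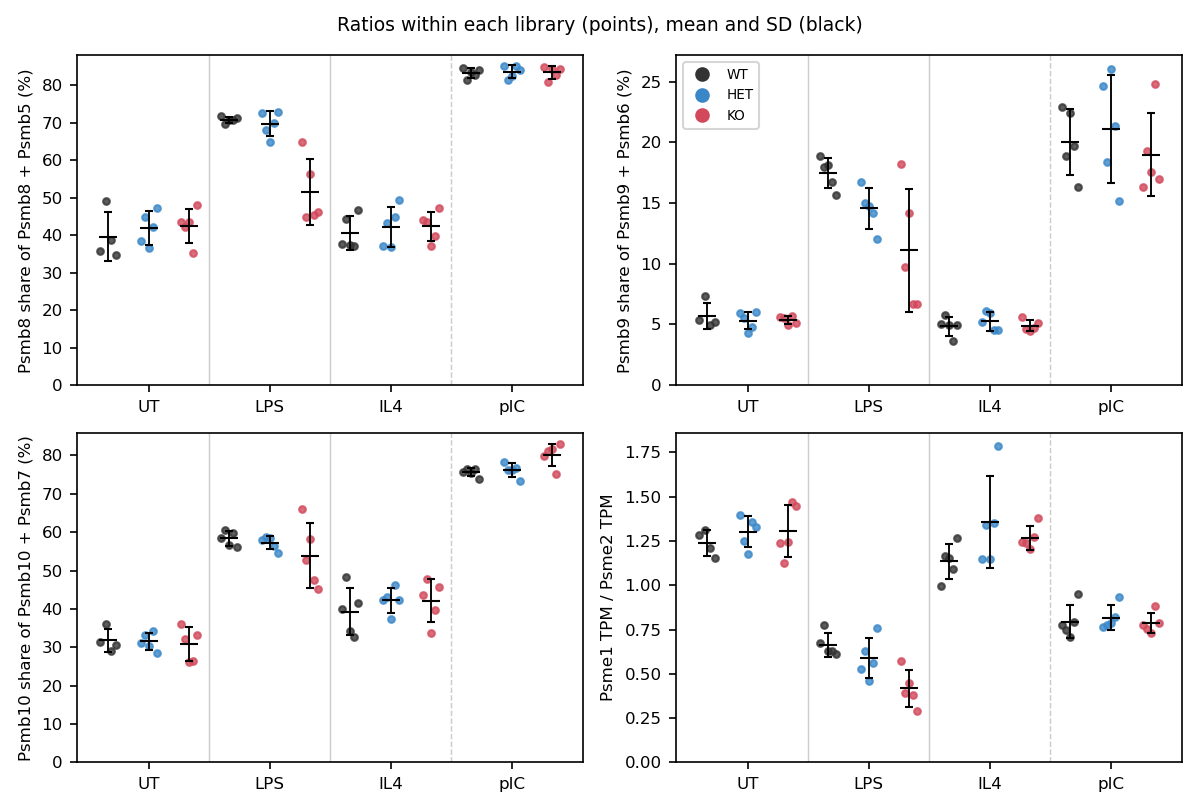
Shares of Psmb8, Psmb9 and Psmb10 in the sum with their constitutive counterparts (percent) and the ratio of Psme1 to Psme2, 1 point per library in the 12 groups, with the pIC libraries from a separate table. The Psmb8 share lies at 69.6 to 71.8% in WT LPS and at 44.9 to 64.7% in KO LPS.

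Under pIC the genotypes were compared within their own table, and no test was made against the other treatments. In WT pIC, Psme2 stood at 1106, 1081, 1195, 930.1 and 865 TPM and Psme1 at 859.6, 806, 843, 737 and 824 TPM, and Psmd10 ranged from 129 to 137 TPM. Under pIC the Psmb8 share was 83.3 ± 1.27% (SD, n = 5) in WT, 83.6 ± 1.70% (SD, n = 5) in HET and 83.5 ± 1.67% (SD, n = 5) in KO. These overlapped. The Psmb9 share was 20.0 ± 2.69% (SD, n = 5) in WT and 19.0 ± 3.41% (SD, n = 5) in KO, also with overlap. The Psmb10 share was 75.6 ± 1.03% (SD, n = 5) in WT, 76.2 ± 1.75% (SD, n = 5) in HET and 80.1 ± 2.93% (SD, n = 5) in KO, where single libraries stood at 79.8, 81.0, 81.6, 75.3 and 82.9% and 4 of 5 lay above every WT library (74.0 to 76.6%). No test was made of these shares.

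KO against WT under pIC gave 11 of 45 members lower and none higher, where 8.11% of all genes were lower and 3.4% higher. At an unadjusted p under 0.05 there were 21 members. The members' median log2 difference, KO minus WT, was -0.17, and that of all genes was -0.11. The count was sensitive to the scaling: median-of-ratios gave 2 lower (3.38% of all genes) and quantile normalization 7 (15.6% of the members, against 4.04% of all genes). It fell to 5 without KO pIC 5, WT pIC 1 or WT pIC 3, to 6 without KO pIC 4 or WT pIC 2 and to 7 without WT pIC 5. The base held 6 of the 11. Psmc5 was at 150.3, 135, 148, 124 and 138 TPM in WT pIC and 109, 107, 122, 99.1 and 96.7 TPM in KO pIC, with no overlap and a difference of -0.38 (SE 0.07, adjusted p = 0.0034). Psmc3, also an ATPase, was at 212, 221, 203, 201 and 220.4 TPM in WT pIC and 189, 189, 191, 154 and 159.7 TPM in KO pIC, with no overlap and the smallest difference called in the base, -0.26 (SE 0.08, adjusted p = 0.035). Psmc6 differed by -0.37, at 120.3, 114, 124, 86.5 and 93.0 TPM in KO pIC against 122 to 150.2 TPM in WT pIC, with overlap.

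Outside the base, Psma1 was at 219, 230.3, 218, 195 and 221 TPM in WT pIC and 198, 171, 188, 143 and 161 TPM in KO pIC, a difference of -0.34 (SE 0.09, adjusted p = 0.019). Only KO pIC 1 reached the WT range. Psmb7 was at 178, 184, 179.8, 165 and 164 TPM in WT pIC and 156, 143, 152, 133 and 129 TPM in KO pIC, a difference of -0.29 (SE 0.06, adjusted p = 0.0098) with the groups apart. The chaperone Psmg1, higher in KO than WT under LPS, was at 16.7, 15.8, 13.8, 13.0 and 11.6 TPM in WT pIC and 8.5, 13.4, 9.60, 9.80 and 9.47 TPM in KO pIC, a difference of -0.45 (SE 0.13, adjusted p = 0.03) with overlap at KO pIC 2. Psmg2 differed by -0.37 and the inhibitor Psmf1 by -0.24 (adjusted p = 0.0495). With single libraries left out, the calls under pIC were lost in 9 of 10 fits for Psmf1, 7 of 10 for Psmg1, 5 of 10 for Psmg2, 6 of 10 for Psmc6 and 6 of 10 for Psmc3.

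None of the 5 activators was called under pIC. Psme1 was at 894, 703, 868, 647 and 721 TPM in KO pIC, overlapping WT, with a difference of -0.10 (SE 0.09, adjusted p = 0.51). Psme4 was at 32.6, 44.6, 38.7, 42.4 and 35.6 TPM in WT pIC and 40.1, 38.8, 42.3, 42.6 and 30.0 TPM in KO pIC, with a difference of -0.00 (SE 0.11, adjusted p = 0.99). Whether these differences differ from those under LPS was not tested, since the tables were deposited separately. Against HET under pIC, 3 members were lower and none higher (3.6% and 1.65% of all genes): Psmc5 at -0.29, Psmb7 at -0.23 and Psmg2 at -0.37. None of the members was called after median-of-ratios scaling or without KO pIC 4. These 3 calls were also lost without KO pIC 5, HET pIC 1 or HET pIC 5. In fits that left out 1 library, Psmc5 lost its call in 5 of 10, Psmb7 in 8 of 10 and Psmg2 in 6 of 10. HET against WT under pIC gave no called member by limma, and none at an unadjusted p under 0.05.

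IL4 moved few members. In WT only Psme2 was called, at 0.33 (SE 0.09, adjusted p = 0.017) and not without WT UT 1 or WT IL4 2, where 3.68% of all genes were higher and 2.63% lower. In HET only Psma4 was called, at 0.24 (SE 0.05, adjusted p = 0.0015) (3.97% and 3.09% of all genes). In KO, Psme2 at 0.26 (adjusted p = 0.049), Psmb6 at 0.25 (adjusted p = 0.03) and Psma4 at 0.17 (adjusted p = 0.038) were higher (5.38% and 3.03% of all genes), and 5 members were with the replicate number as a block. These 3 calls were lost in 8 of 10, 6 of 10 and 6 of 10 fits that left out 1 library. Between genotypes no member was called in UT or IL4 by limma. At an unadjusted p under 0.05 there were 3 for KO against WT in UT, 2 in IL4, 1 for KO against HET in UT and none in IL4, and none for HET against WT in UT and 3 in IL4. Few genes of any kind were called (for HET against WT 0.0126% higher in each, for KO against WT 0.0189% lower and 0.0126% higher in UT and 0.0189% and 0.0251% in IL4, and for KO against HET 0.00629% lower in each).

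Other genes of the pathway were counted from 4 lists. Of 10 immunoproteasome and MHC class I partner genes all 10 were called higher after LPS in WT (median 2.14) and in KO (median 1.37), and all 10 were called lower in KO LPS than in WT LPS (median -0.95). They ran from -1.91 for the peptide transporter Tap1 and -1.37 for the class I transactivator Nlrc5 to -0.38 for the peptide trimmer Erap1 and -0.23 for the core maturation factor Pomp. Under pIC 1 of the 10, Nlrc5, was higher in KO (0.37) and none lower. Of 13 proteasome cofactors 1 rose and 4 fell after LPS in WT, and 3 were lower in KO LPS than in WT LPS, among them Zfand5 (-0.74) and Akirin2 (-0.36), which brings proteasomes into the nucleus. Under pIC 3 were lower in KO, among them the deubiquitinase Usp14 (-0.31).

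Of 6 genes for ubiquitin and its activating enzymes, 2 rose and 2 fell with LPS in WT, and 2 were higher and 2 lower in KO LPS than in WT LPS. As above, on TPM as deposited 13.9% of all genes were higher and 61.9% lower with LPS in WT. The polyubiquitin gene Ubb rose with LPS in WT cells (0.50) and was lower in KO LPS than in WT LPS (-0.51). Rps27a encodes ubiquitin fused to a ribosomal protein. It fell with LPS in WT (-0.84), where the median of all genes was -0.59, and was higher in KO LPS than in WT LPS (0.39). Of 7 genes of the NRF1 axis, which sets proteasome gene levels when proteasome activity falls short, 3 rose and 3 fell after LPS in WT cells. Nfe2l1, which encodes NRF1, was higher with LPS by 1.14, and its KO minus WT difference was -0.00 under LPS (adjusted p = 0.997) and -0.47 under pIC (adjusted p = 0.012). The partner Mafk was lower in KO under LPS, at -1.004.

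Marker genes of other cells moved alongside some of these differences. Those of border macrophages and monocytes summed to 463 to 555 TPM in WT LPS, 484 to 965 TPM in HET LPS and 950 to 1506 TPM in KO LPS. Of 5 tested, 3 were higher in KO than WT and 1 lower. Of the 7 listed, Lyve1 reached at most 0.472 TPM and Cd163 at most 0.123 TPM in KO LPS. The sum thus came from other genes of the list. The microglial genes summed to 4145 to 7214 TPM in KO LPS, with 6 of 12 called higher than in WT and none lower. Oligodendrocyte genes summed to 988 to 2389 TPM in WT UT, 164 to 821 TPM in WT LPS and 189 to 612 TPM in KO LPS, where 0 of 10 were called between KO and WT. Astrocyte genes summed to 58.5 to 113 TPM in WT LPS and 71.6 to 143 TPM in KO LPS, with 0 of 8 called. Neuronal genes summed to 42.8 to 114 TPM and 35.7 to 90.8 TPM, with 0 of 8 called, and vascular genes to 7.87 to 9.36 TPM and 7.90 to 14.9 TPM, with 1 of 7 higher and 3 lower. Under pIC the microglial genes summed to 8702 to 10245 TPM in WT and 11021 to 14875 TPM in KO, with 5 of 12 called higher, none lower, and a median log2 difference of 0.39. Of 7 astrocyte genes 1 was higher in KO pIC, and 0 of 4 border macrophage, 0 of 4 neuronal, 0 of 9 oligodendrocyte and 0 of 4 vascular genes were called. The part of these cells in the member differences was not tested.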

How the data were processed

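RNA of cultured microglia was sequenced in 59 libraries. Per the labels' protocols, an mRNA kit (Kapa mRNA Hyperprep) was used on 300 ng of RNA. The authors deposited TPM per gene in 2 tables (44 and 15 libraries). FastQC, Trimmomatic, DRAGEN, Picard and mm10 are named in the submitters' processing notes. The sources used here give no versions and no strand setting, so overlapping genes (Psma4, Psma5, Psmb5, Psmb7, Psmc3, Psmc3ip, Psmd1, Psmd3, Psmd9, Psmd13, Psme1, Psme2b, Psmg3 and, outside the set, Psmb8 and Psmb9) and copies are uncertain. TPM was transformed as log2(TPM + 1), which understates changes of low genes. A gene entered the test of a table if 4 or more libraries reached 1 TPM (15908 and 13919 genes), including 46 and 45 members. The test was limma 3.58.1 (R 4.3.3, eBayes with trend) with a mean per group, each table fitted separately, two-sided, Benjamini-Hochberg adjusted over all genes and called at 0.05. Tables and figures used Python 3.11.15, pandas 2.3.3, numpy 2.4.6 and matplotlib 3.10.9. Members, lists and the rule for named genes (fixed activators and catalytic subunits, plus the highest and lowest called of each role) were chosen with earlier results of these data known. Some genes of the pathway lists are not reported here. Alternatives were a pseudocount of 0.1, no filter, median-of-ratios, quantile normalization, only the compared groups, a replicate block and leaving out each library. Same-numbered cultures deviated together in WT and KO for LPS against UT (correlations 0.117 to 0.273 and 0.13 to 0.345) and for IL4 against UT (0.191 to 0.418 and 0.173 to 0.558), and for HET against WT in UT (0.121 to 0.29). The depth behind each TPM is unknown, so no counting interval is given.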

Additional observations from a re-analysis of the deposited data

Results flagged for a closer look

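Among 312 groups of 4 or 5 libraries examined for the 26 genes with values per library, 12 held a library set apart from the others by a gap that chance gives in about 1 in 20 groups. The share of such groups did not exceed that rate, so the libraries below are listed as descriptions. In IL4 cultures, Psma1 was at 158 TPM in WT IL4 1 (others 135 to 141 TPM) and at 114 TPM in HET IL4 5 (others 139 to 146 TPM). Psmd10 was at 20.0 TPM in WT IL4 4, Psmg2 at 18.0 TPM in KO IL4 5, Psmd13 at 71.1 TPM in HET IL4 5 and Psme2b at 43.6 TPM in WT IL4 2. In untreated cultures, Psme4 was at 28.2 TPM in HET UT 5 and Psmb1 at 91.1 TPM in KO UT 5. In pIC cultures, Psmd5 was at 19.7 TPM in HET pIC 3, Psmg1 at 13.4 TPM in KO pIC 2 and Psmd12 at 100.1 TPM in HET pIC 5. In LPS cultures, Psmf1 was at 25.8 TPM in WT LPS 2 (others 21.1 to 22.0 TPM).

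By the interaction test the LPS response differed between genotypes for 7 of 46 members against WT. In KO 5 (10.9%) were lower and 2 (4.35%) higher, against 7.03% and 9.36% of all genes. The log2 differences of KO minus WT were -0.77 for Psme1, -0.53 for Psme4, -0.45 for Psmd8, -0.35 for Psmc6, -0.31 for Psmd12, 0.66 for Psmd5 and 0.63 for Psmg1. Those of KO minus HET, for 7 members, were -0.59 for Psme1, -0.52 for Psme4, -0.33 for Psma6, -0.38 for Psmc6, -0.41 for Psmd11, -0.47 for Psmd12 and 0.46 for Psmd5. Against HET 6 (13.0%) were lower and 1 (2.17%) higher, where 6.15% and 7.69% of all genes were. With 1 library left out, calls against WT were lost in 13 of 19 fits for Psmc6, 9 of 19 for Psmg1 and 4 of 19 for Psmd12. Those against HET were lost in 13 of 20 fits for Psmd5, 8 of 20 for Psmd11 and 5 of 20 each for Psmc6 and Psme1.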

How the results depend on the processing

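The higher counts for LPS against UT and the lower counts for KO against WT and against HET under LPS stayed within 1.5 times under every alternative run. Counts of members that moved further were these. With median-of-ratios scaling, LPS against UT gave 1 lower in WT, 0 in HET and 0 in KO, IL4 gave 2 higher in HET and 1 in KO, KO against HET in LPS gave 2 higher, the LPS response gave 9 lower for KO minus WT and 0 higher for KO minus HET, and pIC gave 2 lower for KO against WT and 0 against HET. With quantile normalization, LPS gave 1 lower in WT, 1 in HET and 0 in KO, IL4 gave 2 higher in HET and 1 in KO, KO in LPS gave 5 higher against WT and 3 against HET, the LPS response of KO minus HET gave 2 higher, and KO against WT in pIC gave 7 lower. Without a filter, the LPS response gave 1 higher for KO minus WT and 0 for KO minus HET, and pIC gave 6 lower against WT and 1 against HET. With only the groups compared, IL4 gave 0 higher in WT and 1 in KO, KO against WT gave 4 higher in LPS and 5 lower in pIC, KO against HET gave 0 lower in pIC, and the LPS response gave 3 lower for KO minus WT and 0 higher for KO minus HET. With the replicate block, LPS gave 4 lower in KO, IL4 gave 5 higher in KO and 2 lower in HET, KO in LPS gave 4 higher against WT and 3 against HET, the LPS response of KO minus HET gave 3 higher and 10 lower, and KO against HET in pIC gave 5 lower. Outside the pairings in the methods, at least 1 same-numbered pair of each comparison correlated below 0.1. Mean correlations there still ran from 0.0867 (KO against HET in LPS) to 0.285 (IL4 against UT in HET). Whether the number marks a shared batch was not tested. The cause of the moved counts was not tested.

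Leaving out 1 library at a time, the lower counts ranged from 4 to 7 (LPS in WT), 4 to 6 (HET), 1 to 3 (KO), 0 to 2 (IL4 in HET), 3 to 6 and 3 to 7 (LPS response of KO minus WT and minus HET), 5 to 10 (KO against WT in pIC) and 0 to 4 (against HET). The higher counts ranged from 0 to 1 (IL4 in WT), 1 to 1 (HET), 0 to 4 (KO), 1 to 3 (KO against WT in LPS), 1 to 2 (against HET), and 1 to 3 and 0 to 1 (LPS response of KO minus WT and minus HET).

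Among called differences, signs turned only for genes called lower with LPS. After median-of-ratios scaling these became 0.45 (WT) and 0.42 (HET) for Psmb1, 0.13 (WT) for Psmg1, 0.073 (WT), 0.034 (HET) and 0.062 (KO) for Psmg2, 0.20 (WT) and 0.14 (HET) for Psmg3 and 0.18 (HET) for Psmd9. After quantile normalization they became 0.077 (WT) for Psmg1, 0.070 (WT) and 0.025 (HET) for Psmg3, 0.0064 (HET) for Psmd9 and 0.044 (KO) for Psmc3ip. Depth is not known for these libraries, and 5 cultures a group limit the precision.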
